A study of Mus musculus with 4 samples.

Results

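The matrix metalloproteases (MMP), the ADAM, ADAMTS and ADAMTS-like (ADAMTSL) genes, the tissue inhibitors of metalloproteases (TIMP) and the serpins were followed in denervated tibialis anterior (TA) muscle of wild-type and Fgf21-null mice. Members were taken by symbol, as every gene of these families in the count table except Serpinh1, a collagen chaperone with a serpin fold. The rule gave 51 of 13825 genes, which were 9 MMP, 13 ADAM, 12 ADAMTS, 4 ADAMTSL, 2 TIMP and 11 serpin genes. Of these, 50 had a mean count of at least 10 and were among the 13084 genes tested. Adam4 was left out of every ratio, since it had 2 counts in WS and 11 in WD, and 8 in KS and 9 in KD. Timp1 and Timp4 were not analysed here.

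All animals were adult males, either WT or whole-body Fgf21KO (global knockout), and TA muscle was taken 14 days after surgery. The study's methods give C57BL/6J as the WT strain, and the strain background of Fgf21KO is not given in the sources used here. A piece of the sciatic nerve was cut out of the left leg, and the right leg of the mice gave the control muscle, which the sample labels call Sham. The series' own design says only that the right leg stayed innervated, whereas the study's methods describe an operation without nerve section. Sham and denervated muscle of WT are written WS and WD, and those of Fgf21KO KS and KD, which makes 4 groups. RNA of each group was made into 1 poly(A) library after 4 muscles had been pooled, so the spread between animals could not be measured in any group.

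MMP, ADAM and ADAMTS genes encode proteins of zinc metalloprotease families, although some ADAMs, Adam11 among them, have no working protease site. MMPs cleave collagens and other matrix proteins, ADAMs release the outer parts of membrane proteins such as growth factors and Notch, and ADAMTS enzymes are secreted and cut proteoglycans, procollagens and other matrix glycoproteins. ADAMTSL genes encode related matrix proteins with no protease domain, and several of these bind fibrillin microfibrils. TIMPs block metalloproteases directly, while serpins are mostly suicide inhibitors of serine proteases, some secreted and some, as in clade B, kept inside the cell. In muscle these systems act on the basement membrane around fibers, on the neuromuscular junction and on the matrix made by fibroblasts.

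Total counts ran from 25249879 (WS) to 34141303 (KS), and 3 counts were worth 0.0919 to 0.129 CPM (counts scaled by library size). Of 7 muscle fiber markers, Myh1 was in the table, with 510937 to 641610 counts, and the other 6 were not analysed here. Fgf21 was not analysed here, and no check of genotype by its level was made. The table held genes with at least 1 read in every library. Ratios are log2 ratios of CPM after TMM scaling over all genes tested, and a gene was counted as higher or lower in a pair of libraries at a 2-fold difference or more. Where 4 values of a gene or sum are listed without names, their order is always WS, WD, KS, KD, and paired ratios are given for WT first. Intervals are 95% and cover counting error only. DESeq2, models of 1 term and edgeR's exact test were run as alternatives only. The main test was the quasi-likelihood test of edgeR, on an additive model of surgery and genotype with 1 residual degree of freedom. It took the genotypes as repeats of the surgery. A gene was called at an adjusted p-value below 0.05 and a 2-fold change, and "rose" and "fell" are used only for such genes. Its p-values measure the spread between these pooled libraries, drawn for each gene toward a trend over all genes. That trend carried 26.91 degrees of freedom against the 1 of the gene itself. The interaction of surgery and genotype could not be tested. In whole muscle, fewer cells of a type and less RNA per cell cannot be told apart.

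After denervation a few inhibitors were far above their sham level, while most of the other members lay below it. In the additive model, Serpinb1a, Serpinb6a, Serpinb8, Serpina3n, Adam8, Adam19 and Mmp3 rose, which was 7 of 50 members (14%) against 6.84% of all genes tested. Serpine2, Adamtsl4, Adamts7, Mmp28 and Adamts15 fell, which was 5 of 50 (10%) against 6.24%. Without the 2-fold requirement, 9 members were higher and 21 lower at an adjusted p-value below 0.05, that is 18% and 42% of the members, where all genes gave 26.6% and 27.0%. The median member ratio was -0.58 in WT (WD vs WS) and -0.37 in Fgf21KO (KD vs KS), and the medians of all genes were 0.01 and 0.01. Serpinb1a, Serpinb6a, Serpinb8, Serpina3n, Serpine2 and Adamtsl4 were called under each of 11 settings of the model, scalings, filters, DESeq2 and the omission of each library included. The other 6 calls were lost under 2 to 7 of these settings, Mmp3 most often, which was called in 4 of 11. The fits that left out a library had surgery as their only term, so the genotype term was dropped there too. With libraries scaled by total count alone, 9 members were called higher and 3 lower, and ratios near 0 changed sign, those of Mmp2 in Fgf21KO and Serpinf1 in WT among them.

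In the pairs of libraries themselves, 6 members were at least 2-fold higher in WD vs WS (12%, all genes 7.18%) and 10 were lower (20%, all genes 7.61%). In KD vs KS, 8 members were higher (16%, all genes 7.51%) and 5 lower (10%, all genes 6.10%). These comparisons share no library. Adam8, Serpina3n, Serpinb1a, Serpinb6a and Serpinb8 were higher in both, 5 of 50 where 5.10% of all genes were. Adamts7, Adamtsl4 and Serpine2 were lower in both, 3 of 50 where 3.99% of all genes were. With total-count scaling the members split into 7 higher and 4 lower in WT and into 10 and 2 in Fgf21KO.

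**Figure D1:**
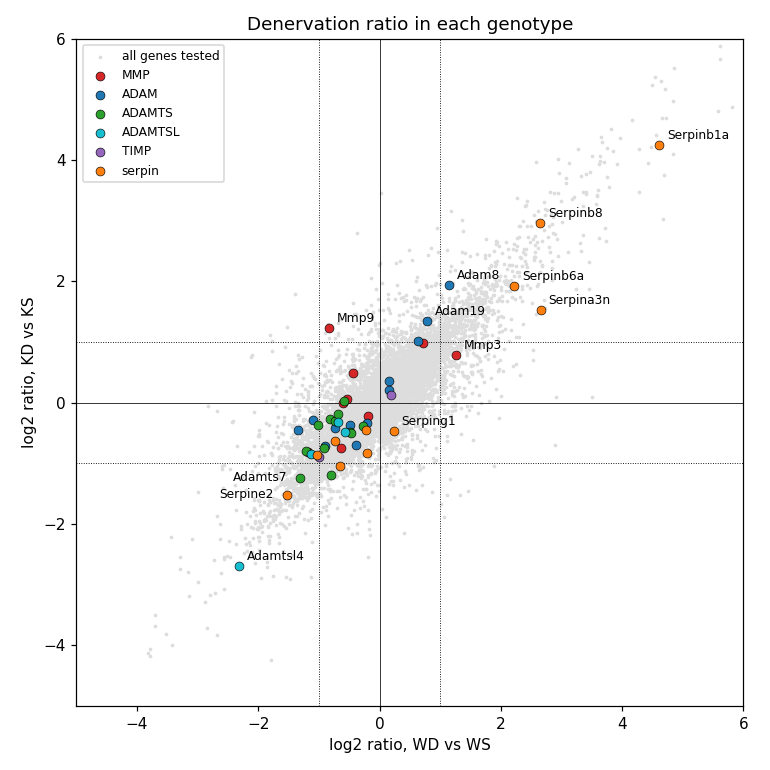
Log2 ratio of denervated to sham muscle in WT (WD vs WS, horizontal) and in Fgf21KO (KD vs KS, vertical) for all 13084 genes tested (gray) and the 50 members tested, colored by family; dotted lines mark 2-fold. Serpinb1a (4.61 and 4.25) lies farthest out among the members, Adamtsl4 (-2.31 and -2.69) lies lowest, and Mmp9 (-0.83 and 1.23) is below 0 in WT and above 0 in Fgf21KO.

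The largest rises were in clade B serpins, which act inside cells. Serpinb1a, an inhibitor of neutrophil serine proteases, had 55 counts in WS and 1945 in WD, with 86 in KS and 1737 in KD. Both denervated libraries were far above both sham libraries, with log2 ratios of 4.61 (4.27 to 5.07) in WT and 4.25 (3.96 to 4.61) in Fgf21KO. The additive model gave a rise of 4.44 on the log2 scale (adjusted p = 5.6e-22). Serpinb6a, a cytosolic inhibitor of cathepsin G, had 5670 counts in WS and 37076 in WD, with 8858 in KS and 34885 in KD. It was the member with the highest level per length, at a mean of 350 CPM per kb of exon over the 4 libraries, and it rose by 2.07 (adjusted p = 8.08e-19). Serpinb8, an inhibitor of furin, had 18 counts in WS and 171 in WD, with 21 in KS and 185 in KD. Denervated muscle was 6.29 times the sham level in WT and 7.80 times in Fgf21KO, and the log2 change in the model was 2.92 (adjusted p = 5.14e-10). Serpina3n, a secreted acute-phase serpin that inhibits granzyme B, had 16 counts in WS and 154 in WD, with 60 in KS and 185 in KD. Here KS already lay above WS, and the rise with denervation was 2.66 (2.03 to 3.62) in WT, 1.53 (1.14 to 2.01) in Fgf21KO and 2.02 in the model (adjusted p = 3.43e-07). Serpinb1a, Serpinb6a and Serpina3n belong to clusters of related copies, taken by symbol, whose sequences were not compared here. Reads can be split within such clusters, so the values of these genes are uncertain to that extent.

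Serpine2 moved the other way. This gene encodes protease nexin-1, a secreted inhibitor of thrombin and plasminogen activators, and was the second member by level per length at 48.6 CPM per kb. It had 3667 counts in WS and 1785 in WD, with 4772 in KS and 1734 in KD, so both denervated libraries were below both sham libraries. The ratios were nearly the same in the genotypes, at -1.53 (-1.61 to -1.45) in WT and -1.52 (-1.60 to -1.44) in Fgf21KO, with a fall of 1.52 in the model (adjusted p = 1.68e-16). Adamtsl4, which encodes a fibrillin-binding protein, fell further, from 675 counts in WS to 189 in WD and from 922 in KS to 147 in KD. Its ratios were -2.31 (-2.57 to -2.09) in WT and -2.69 (-2.97 to -2.46) in Fgf21KO, with a fall of 2.51 in the model (adjusted p = 5.91e-16).

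The promoters of the 8 members that moved at least 2-fold the same way in both genotypes are shown to let their letters be compared, as the 250 bases before the RefSeq start on GRCm38.p6, 5′ to 3′ on the strand of the gene. A window was matched for 32 of the 51 members, and for 6 of these 8, with 2 starts for Serpinb6a. The others were Serpinb1a and Adamts7. Capitals mark matches, on either strand, to 5 motifs chosen after the values were seen: the E-box CAGCTG (in 13.0% of 32851 windows of this length), AP-1 TGANTCA (6.75%), FoxO GTAAACA (3.17%), Runx TGTGGT (14.0%) and a TATA box spelled TATAAA (12.4%). None of these motifs holds another, and no marked matches overlapped.
Serpinb8 (chr1:107589756-107590005, plus strand): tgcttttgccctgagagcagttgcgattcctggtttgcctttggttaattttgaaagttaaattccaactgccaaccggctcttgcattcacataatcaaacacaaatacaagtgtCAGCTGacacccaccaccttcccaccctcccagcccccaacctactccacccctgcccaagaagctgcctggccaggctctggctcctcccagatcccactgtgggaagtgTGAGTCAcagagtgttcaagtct
Serpinb6a start 1 (chr13:34002795-34003044, minus strand): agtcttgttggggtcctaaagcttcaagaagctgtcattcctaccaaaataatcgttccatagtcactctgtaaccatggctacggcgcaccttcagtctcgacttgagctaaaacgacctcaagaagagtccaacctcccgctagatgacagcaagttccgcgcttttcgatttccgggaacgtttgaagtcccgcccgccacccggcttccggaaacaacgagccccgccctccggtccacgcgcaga
Serpinb6a start 2 (chr13:33936084-33936333, minus strand): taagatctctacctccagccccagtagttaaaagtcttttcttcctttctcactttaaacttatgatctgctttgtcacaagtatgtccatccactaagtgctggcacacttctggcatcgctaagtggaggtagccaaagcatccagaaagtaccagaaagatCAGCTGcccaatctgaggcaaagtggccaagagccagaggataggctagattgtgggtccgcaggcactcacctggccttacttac
Serpina3n (chr12:104406458-104406707, plus strand): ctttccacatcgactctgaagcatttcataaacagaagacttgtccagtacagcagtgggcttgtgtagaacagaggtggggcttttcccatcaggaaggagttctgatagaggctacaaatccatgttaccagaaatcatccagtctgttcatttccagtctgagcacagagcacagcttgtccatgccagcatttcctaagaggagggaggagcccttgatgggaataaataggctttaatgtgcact
Adam8 (chr7:139992563-139992812, minus strand): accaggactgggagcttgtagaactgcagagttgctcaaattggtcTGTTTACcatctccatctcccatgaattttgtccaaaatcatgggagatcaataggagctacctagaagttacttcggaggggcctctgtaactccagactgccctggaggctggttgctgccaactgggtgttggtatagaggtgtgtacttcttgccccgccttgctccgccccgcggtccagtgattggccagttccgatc
Adamtsl4 (chr3:95687918-95688167, minus strand): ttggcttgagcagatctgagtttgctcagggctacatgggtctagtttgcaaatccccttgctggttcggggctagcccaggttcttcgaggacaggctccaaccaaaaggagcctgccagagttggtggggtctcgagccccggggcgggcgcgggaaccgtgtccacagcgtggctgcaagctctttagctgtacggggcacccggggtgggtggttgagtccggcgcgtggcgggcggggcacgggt
Serpine2 (chr1:79858666-79858915, minus strand): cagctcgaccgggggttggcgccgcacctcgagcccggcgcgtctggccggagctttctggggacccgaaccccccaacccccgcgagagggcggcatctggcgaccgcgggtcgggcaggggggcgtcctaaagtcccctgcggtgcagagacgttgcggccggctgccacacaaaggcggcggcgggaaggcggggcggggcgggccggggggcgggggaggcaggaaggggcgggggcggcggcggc

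Serpinb8 held 1 E-box and 1 AP-1 match, the second start of Serpinb6a held 1 E-box, and Adam8 held 1 FoxO match. In the windows of Serpina3n, Adamtsl4, Serpine2 and the first start of Serpinb6a, none of these letters occurred. GC content ran from 46.4% in Serpina3n to 78.8% in Serpine2, where the median of all windows was 52.4%. A match describes the letters of the window and is not evidence of binding.

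Summed over a family, the inhibitors had a higher level in denervated muscle with Serpinb6a and a lower one without it. The 11 serpins summed to 478.6 CPM in WS and 1329 in WD, with 555.2 in KS and 1316 in KD. Serpinb6a supplied 51.0% of that sum in WS and 85.4% in WD, with 53.7% in KS and 85.7% in KD. Without it, the other 10 serpins summed to 234.6, 193.7, 257.0 and 188.1 CPM in the same order, below sham after denervation in both genotypes, although with total-count scaling the sum in WT was 1.01 times its sham value. This lower sum rested on Serpine2, at 158, 54.7, 161 and 56.0 CPM, whose drop exceeded that of the sum in both genotypes. Serpinb1a went the other way, at 2.37, 59.6, 2.90 and 56.1 CPM, so the sum does not describe the other serpins as a group. The TIMP sum was also lower in denervated muscle, at 242.6, 166.7, 243.1 and 173.9 CPM. That came from Timp3 alone (171, 85.5, 165 and 88.4 CPM), since Timp2 was higher after denervation (71.5, 81.1, 78.1 and 85.5 CPM). The 34 MMP, ADAM and ADAMTS genes summed to 412.5 CPM in WS and 313.0 in WD, with 372.2 in KS and 314.3 in KD, or 0.759 times the sham sum in WT and 0.845 times in Fgf21KO, which became 0.924 and 1.08 times with total-count scaling. ADAMTSL had the smallest fraction of its sham sum left, 0.53 in WT and 0.545 in Fgf21KO, or 0.646 and 0.698 with total-count scaling.

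**Figure D2:**
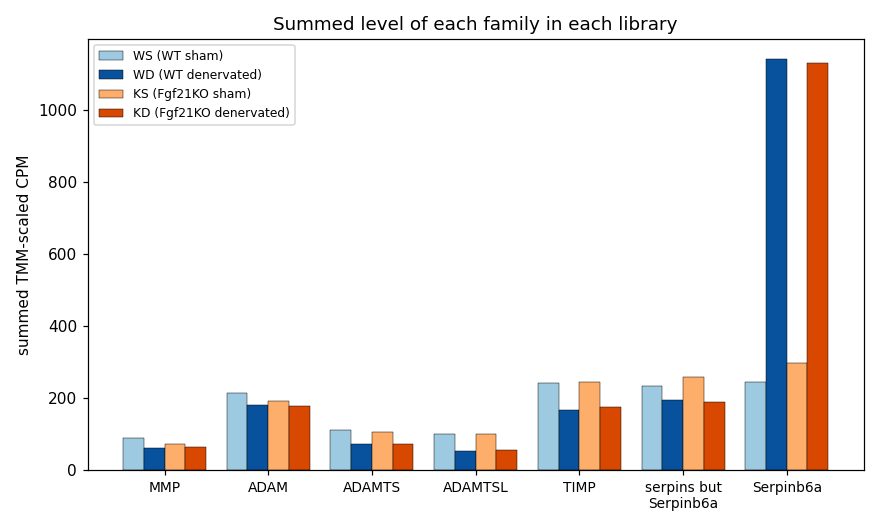
Summed TMM-scaled CPM of each family in each of the 4 pooled libraries, with Serpinb6a drawn apart from the other serpins; bars start at 0 and have no error bars, since each group is 1 library. Serpinb6a is near 1140 CPM in both denervated libraries and at 298 or less in both sham libraries, and every other group is lower in the denervated library of its genotype, a direction that with total-count scaling turns for ADAM in both genotypes (1.04 and 1.19 times sham), MMP in Fgf21KO (1.12 times) and the other serpins in WT (1.01 times).

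Among the MMPs, those of highest level per length were Mmp2, or gelatinase A, at 8.92 CPM per kb, Mmp15 at 4.08 and Mmp14 at 3.64, both membrane-anchored. Mmp2 had 778 counts in WS and 721 in WD, with 809 in KS and 836 in KD. After scaling, Mmp2 lay lower in WD than in WS (ratio -0.60, -0.75 to -0.45) and did not differ beyond counting error between KD and KS (-0.01, -0.15 to 0.13). Mmp14, an activator of Mmp2 at the cell surface, had 447, 434, 414 and 448 counts, with a ratio of -0.53 (-0.73 to -0.34) in WT and 0.06 (-0.14 to 0.25) in Fgf21KO. For both genes WS was the highest library after scaling, and neither was called. In the model Mmp2 stood at -0.30 (adjusted p = 0.0236), short of 2-fold, and Mmp14 at -0.24 (adjusted p = 0.127). Mmp15 had 596, 539, 778 and 480 counts, with -0.63 in WT, -0.75 in Fgf21KO and -0.70 in the model (adjusted p = 2.68e-06), short of 2-fold. The largest changes were in MMPs of low counts. Mmp3, or stromelysin-1, had 8 counts in WS and 30 in WD, with 18 in KS and 34 in KD, and rose by 1.08 (adjusted p = 0.0375). Mmp28, or epilysin, had 88, 53, 66 and 38 counts, and fell by 1.05 (adjusted p = 3.26e-03). The call for Mmp3 was lost in DESeq2 and with surgery as the only term. In that 1-term model it was also lost without any 1 of the 4 libraries. The call for Mmp28 was lost without WS or KD, in DESeq2 and with total-count scaling. Mmp23 had 43, 101, 34 and 72 counts, just under the 2-fold line at 0.87 in the model (adjusted p = 0.0134). Mmp9, or gelatinase B, had 24, 18, 7 and 20 counts, and the KS count was the lowest of the 4. Mmp17 (13 to 20 counts) and Mmp19 (22 to 45 counts) were not called (adjusted p = 0.977 and 0.633).

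The ADAM genes of highest level per length were Adam9 at 24.2 CPM per kb and Adam17, the sheddase of TNF, at 7.20. Adam9 had 2712 counts in WS and 2711 in WD, with 3204 in KS and 2584 in KD, and was lower after scaling in both genotypes (-0.49 and -0.37), with -0.43 in the model (adjusted p = 1.45e-05). Adam17 had 728, 1135, 828 and 1108 counts and ratios of 0.15 and 0.36, and Adam10, the main sheddase of Notch, had 623, 975, 766 and 924 counts and ratios of 0.15 and 0.21. Adam17 was higher by 0.26 in the model (adjusted p = 0.0215), short of 2-fold, and Adam10 was not called (adjusted p = 0.108). Adam8, found mainly on leukocytes, had 12 counts in WS and 40 in WD, with 9 in KS and 42 in KD. It rose by 1.68 (adjusted p = 1.81e-03), although the call rested on 12 and 9 sham counts and was lost without KS and in DESeq2. Adam19, or meltrin beta, which can release neuregulin, had 123, 299, 124 and 333 counts. The denervated libraries were above the sham ones in both genotypes, with ratios of 0.78 (0.48 to 1.11) and 1.35 (1.06 to 1.68) and a rise of 1.08 (adjusted p = 5.24e-06), a call lost without KS or KD. Adam12, or meltrin alpha, had 24, 29, 26 and 21 counts and was not called (adjusted p = 0.566). The lowest ADAM ratios by the mean of both genotypes were those of Adam23, with 26, 13, 23 and 17 counts, and Adam33, with 57, 42, 58 and 36 counts, at -0.98 (adjusted p = 0.0655) and -0.84 (adjusted p = 0.0280) in the model. Adam1a had 52, 33, 46 and 39 counts, and its related copy Adam1b had 8 to 13 counts. Reads may have been split between these copies, and neither was called.

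All 12 ADAMTS ratios were below 0 in WD vs WS (median -0.77), and 11 of 12 were in KD vs KS (median -0.43), whereas 50.5% and 50.8% of all genes were above 0. With libraries scaled by total count alone, the median of all genes was 0.29 in WT and 0.36 in Fgf21KO, and 12 and 8 of the 12 ADAMTS ratios were below 0, while 12 and 11 were below that median. At an adjusted p-value below 0.05, 8 of 12 were lower at any fold, where 27.0% of all genes were, and of these Adamts7 and Adamts15 also passed 2-fold, where 6.24% of all genes did. Adamts1, which cuts versican and aggrecan, was the highest per length at 8.59 CPM per kb, and had 1116, 1121, 1482 and 1101 counts. Its ratio was -0.48 in WT and -0.49 in Fgf21KO (adjusted p = 1.61e-05). Adamts5, another aggrecanase, had 363, 292, 467 and 212 counts, with -0.80 in WT and -1.19 in Fgf21KO, and stood just short of 2-fold in the model at -0.998 (adjusted p = 4.54e-07). Adamts7, which cleaves cartilage oligomeric matrix protein, had 78, 43, 57 and 24 counts, and fell by 1.33 (adjusted p = 8.93e-04). Adamts15 had 73, 43, 75 and 44 counts, and fell by 1.04 (adjusted p = 4.15e-03). The Adamts7 call was lost without WS or KD, and the Adamts15 call without WS or WD, in DESeq2 and with total-count scaling. Adamts2, the main procollagen N-propeptidase, had 256, 259, 332 and 245 counts and ratios of -0.47 and -0.49, and its relative Adamts14 had 39, 45, 43 and 34 counts (adjusted p = 0.414). Adamts6 was the exception in KD vs KS at 0.02, with 50, 46, 67 and 71 counts. Of the remaining genes, Adamts10 stood at -0.85 (adjusted p = 5.23e-05) and Adamts9 at -0.43 (adjusted p = 0.0391), and Adamts3 and Adamts4, with 10 to 20 counts, were not called.

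The protease-free ADAMTSL genes were below 0 in both genotypes, 4 of 4 in each, except that with total-count scaling 3 of 4 were in KD vs KS. Adamtsl5, at 26.7 CPM per kb, had 1571, 1479, 1973 and 1472 counts and ratios of -0.58 and -0.48 (adjusted p = 1.80e-06). Adamtsl4 was thus the one member of the group past 2-fold in both pairs, at 29.1 CPM in WS and 5.79 in WD, with 31.0 in KS and 4.75 in KD. Adamtsl2, also fibrillin-binding, had 19, 11, 19 and 10 counts (adjusted p = 0.0505), and Adamtsl1 had 75, 65, 94 and 78 (adjusted p = 0.102).

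The TIMPs differed from each other. Timp3, which binds to the matrix and inhibits ADAM17 and ADAMTS enzymes besides MMPs, had 3975 counts in WS and 2792 in WD, with 4902 in KS and 2735 in KD. It lay at the 2-fold line in WT (interval -1.07 to -0.93) and at -0.90 (-0.97 to -0.83) in Fgf21KO, and the model gave -0.95 (adjusted p = 4.89e-12). Timp2, which also takes part in the activation of pro-Mmp2, had 1661, 2649, 2320 and 2645 counts. Its ratios were 0.18 (0.09 to 0.27) and 0.13 (0.05 to 0.21), and it was not called (adjusted p = 0.0800). Their levels per length were 27.0 CPM per kb for Timp3 and 21.3 for Timp2.

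The other serpins kept closer to their sham level. Serping1, the C1 inhibitor of complement, had 677 counts in WS and 1121 in WD, with 1192 in KS and 898 in KD, so that WD was above WS and KD below KS after scaling. Serpinf1, which encodes pigment epithelium-derived factor, had 744, 894, 1074 and 819 counts, with ratios of -0.23 and -0.45 (adjusted p = 3.54e-03). Neither of these passed 2-fold in the model. Serpini1, or neuroserpin, had 35, 23, 47 and 26 counts and ratios of -1.03 and -0.86, past 2-fold in WT alone. In the model it stood at -0.996 (adjusted p = 0.0226), again just short of 2-fold. Serpinb9, an intracellular inhibitor of granzyme B, had 131, 109, 206 and 137 counts (adjusted p = 3.60e-03). Serpinb6b had 20, 17, 30 and 14, with ratios of -0.66 and -1.05, past 2-fold in Fgf21KO alone, and was not called (adjusted p = 0.0694). Both belong to clusters of related copies, so reads may be split among them.

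**Figure D3:**
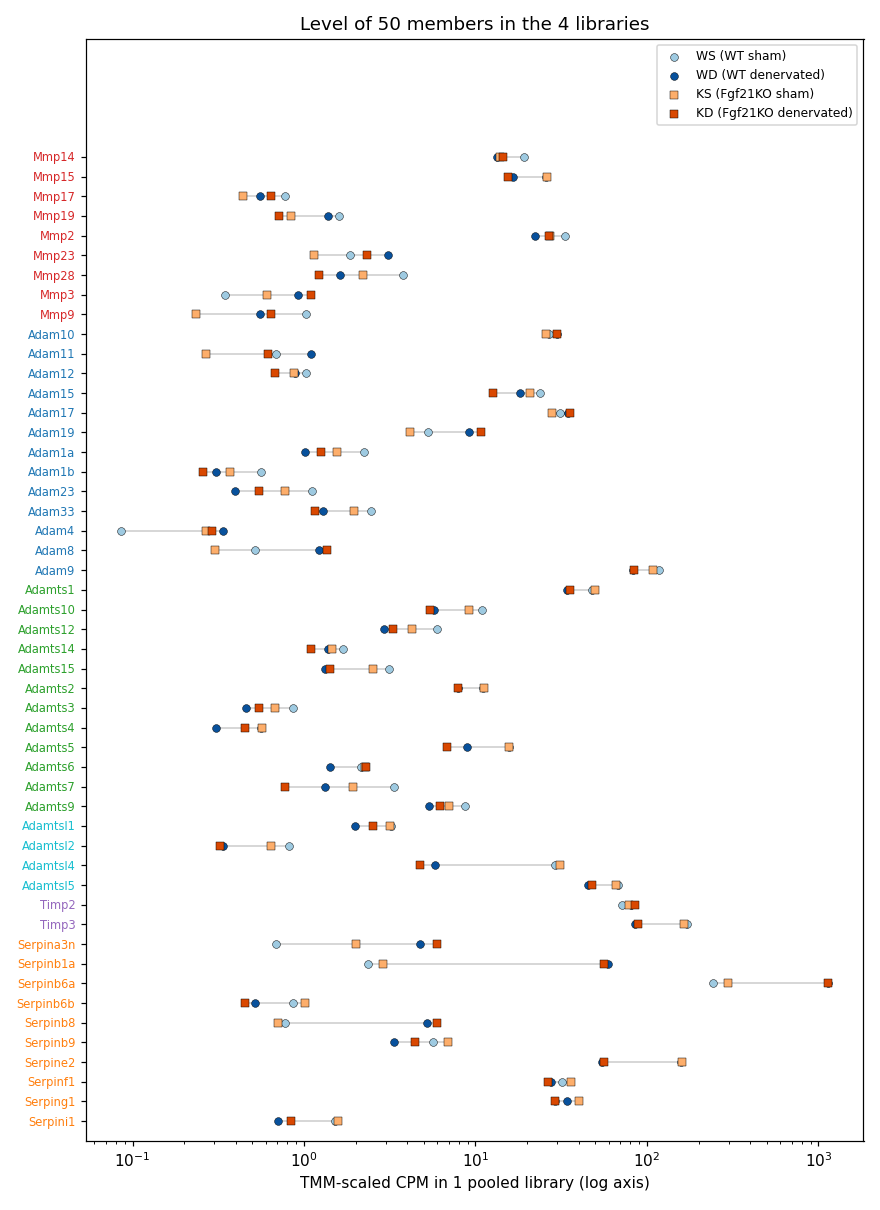
TMM-scaled CPM of 50 of the 51 members in the 4 pooled libraries (horizontal, log axis), with symbols colored by family; circles are WT, squares are Fgf21KO, dark colors are denervated, and a gray line joins the lowest and highest library. Serpinb1a, at 2.37 CPM in WS and 2.90 in KS, lies at 59.6 in WD and 56.1 in KD, and Adamtsl4 and Serpine2 have both dark symbols left of both light ones.

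Markers of other cells in the muscle moved with surgery as well. The 9 macrophage and monocyte markers, all in the table, summed to 32.4 CPM in WS and 71.5 in WD, with 33.9 in KS and 70.0 in KD, and 5 and 4 of them were at least 2-fold higher in WT and Fgf21KO. Of 5 neutrophil markers 2 were in the table, with summed levels of 0.904, 1.38, 0.404 and 0.873 CPM, while T and B cell and mast cell markers were not analysed here. The 5 endothelial markers summed to 448, 202, 360 and 195 CPM, and the 4 pericyte and smooth muscle markers to 678, 284, 630 and 280 CPM. Fibroblast and fibro-adipogenic progenitor markers, 8 of 8 in the table, summed to 424, 296, 452 and 270 CPM. Gsn was the most abundant of these, Pi16 stood above its sham level in WT and Lum in Fgf21KO, and 7 of 8 were below it in each genotype. Macrophage markers thus moved in the direction of Adam8, Adam19, Mmp3, Serpina3n and the 3 clade B serpins that rose, and the vascular markers and most fibroblast markers in the direction of Serpine2, Timp3, Adamtsl4 and the ADAMTS genes. Their part in these results was not tested.

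Fewer members were 2-fold apart between the genotypes than between denervated and sham muscle. How large the genotype differences are between animals cannot be had from 1 pooled library a group. By the design, the sham and denervated legs of a genotype came from the same mice, so the genotype test counts 2 libraries of 1 set of animals as repeats. No member was called for genotype by edgeR's quasi-likelihood test, higher or lower, where 0.0611% of all genes were called higher and 0.115% lower, and DESeq2 called 0 members. At an unadjusted p-value below 0.05 there were 6 of 50 members, where all genes gave 7.93%, and the smallest adjusted p-value was that of Adam15, at 0.235. Adam15, an ADAM with an RGD integrin-binding site, had 554, 594, 614 and 393 counts, with -0.21 (-0.37 to -0.04) in KS vs WS and -0.52 (-0.71 to -0.33) in KD vs WD. In sham muscle, KS vs WS, 1 member was at least 2-fold higher, Serpina3n (2% of the members, all genes 0.887%), and 2 were lower, Mmp9 and Adam11 (4%, all genes 1.15%). Serpina3n stood at 1.46 (0.74 to 2.45), and Mmp9 at -1.86 (-3.59 to -0.87). Adam11, a brain-enriched ADAM without a working protease site, had 16, 36, 8 and 19 counts, and its ratio was -1.16 (-2.79 to -0.05). Each of these 3 rested on fewer than 20 counts in at least 1 of the sham libraries, and the neutrophil marker sum, also of low counts, was lowest in KS as Mmp9 was, a link that was not tested. In denervated muscle, KD vs WD, 0 members were 2-fold higher (all genes 0.841%) and 0 were 2-fold lower (all genes 0.711%). Among members with a mean count of at least 50, Adamts7 (-0.79 in KS vs WS, -0.71 in KD vs WD) and Adamts6 (0.07 and 0.68) gave the largest ratios beside Serpina3n.

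In sham muscle the families lay on different sides of 0. All 12 ADAM ratios of KS vs WS were below 0 (median -0.33), as were 7 of 9 MMP ratios (median -0.66), while 10 of 11 serpin ratios were above 0 (median 0.28), where 49.7% of all genes were above 0. The counting interval covered 0 for most ADAM and most serpin ratios, such as Adam10 (-0.21 to 0.10) and Serpine2 (-0.04 to 0.09), and for fewer MMP ratios. All these ratios come from the same pair of libraries, so the genes of a family are not repeats of the genotype. With total-count scaling, 12 ADAM and 8 MMP ratios were below 0 and 8 serpin ratios above it, while the median of all genes was -0.08. In denervated muscle, which shares no library with the sham comparison, 5 of 12 ADAM ratios were below 0 (median 0.00) and 5 of 11 serpin ratios were above it (median -0.01). The median size of the genotype ratio, without its sign, was 0.29 over the members in sham muscle, where all genes gave 0.15, and 0.21 in denervated muscle, where all genes gave 0.11. Such a size grows with counting error, and the members were not matched to other genes by count. These sizes thus cannot tell a larger genotype difference from a larger counting error.

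**Figure D4:**
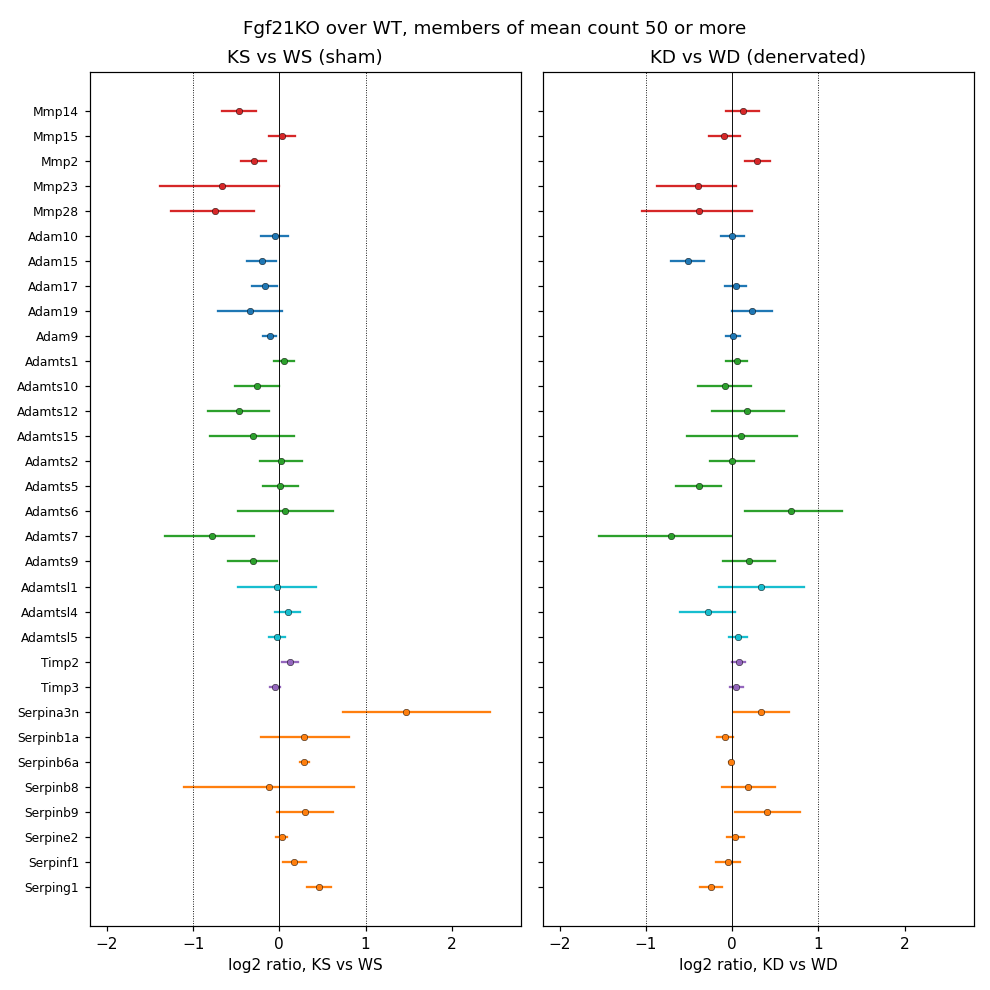
Log2 ratio of Fgf21KO to WT in sham (left, KS vs WS) and denervated muscle (right, KD vs WD) for the members shown, all with a mean count of at least 50, colored by family; points are ratios, lines are 95% counting intervals, and dotted lines mark 2-fold. Serpina3n at 1.46 in sham muscle is the one point past a dotted line, and no point is past one in denervated muscle.

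The size of the denervation ratio differed between genotypes by more than counting error for 17 of 50 members (34%), where 29.2% of all genes did, so the share among members was near that of all genes. Whether such a gap exceeds the spread between animals cannot be had from 1 pooled library a group. The largest gaps among members with a mean count of at least 50 were those of Serpina3n, whose ratio was lower in Fgf21KO by 1.13 (difference -1.13, -1.98 to -0.27), Serping1 (-0.70, -0.89 to -0.52) and Adamts12 (0.64, 0.11 to 1.18). Adamts12, a relative of Adamts7, had 138, 95, 127 and 102 counts, with WS the highest library after scaling. For Serpina3n the denervated libraries were close, at 4.72 CPM in WD and 5.98 in KD, and the sham libraries apart, at 0.689 CPM in WS and 2.02 in KS. For Serpinb6a as well the sham libraries were farther apart than the denervated ones, at a far higher count, with 244 CPM in WS and 298 in KS against 1140 in WD and 1130 in KD, and a gap of -0.30 (-0.35 to -0.25). Serpine2 gave the smallest gap of the members called in both pairs, at 0.01 (-0.10 to 0.12).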

How the data were processed

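TA muscle RNA was sequenced as 1 pooled library per group (4 muscles each), from a TruSeq stranded mRNA kit. The authors deposited raw read counts per gene, and a table named for FPKM whose log2 values, as deposited, equal log2(count times 1 factor per library, plus 1). The submitters' processing notes name FastQC and GRCm39. The aligner, the counter and its strand setting are not given in the sources used here. Samples were grouped by their labels. Genes averaging 10 counts or more were scaled by TMM, and log2 CPM was taken at a prior count of 2. R 4.3.3 with edgeR 4.0.16 (quasi-likelihood, Benjamini-Hochberg over 13084 genes, common biological coefficient of variation 0.0681) and DESeq2 1.42.0 as the alternative were used, with Python 3.11.15 for intervals, from the exact binomial for ratios and a normal approximation for gaps between ratios. Scripts were tested on simulated counts. Exon lengths came from GENCODE M21 and promoters from RefSeq, so no coordinate was taken from the deposited build. Members, families, marker lists and the lists of other proteases and of matrix substrates were chosen with earlier results of these data known. Members named were the 2 highest and 2 lowest mean denervation ratios and the 2 highest levels of each family, all members 2-fold apart the same way in both denervation pairs or in both genotype pairs, the 2 largest ratios of each genotype pair and the 3 largest gaps between denervation ratios at a mean count of at least 50, and a fixed list of well-known members, with the 2 highest and 2 lowest of each other list. The values of 1 member are not reported here. A gene named beyond this list was picked with its values in view. Other scalings, filters, prior counts, folds, tests, the deposited log2 values and the omission of each library were tried.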

Additional observations from a re-analysis of the deposited data

Results flagged for a closer look

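The denervation ratio had opposite signs in the genotypes for 5 members, Adamts6 and Mmp17 among them, and for 3 of the 5 the gap was also larger than counting error, which set these 3 apart for a closer look. How many of all genes had opposite signs is not given here, so neither the 5 nor the 3 can be set against a background. The difference was not tested, since each group is 1 library. Serping1 stood at 0.24 (0.10 to 0.38) in WT and -0.47 (-0.59 to -0.34) in Fgf21KO, a difference of -0.703, and its 4 libraries held 29.1 CPM in WS and 34.3 in WD, with 40.1 in KS and 29.0 in KD. Mmp14 stood at -0.53 (-0.73 to -0.34) in WT and 0.06 (-0.14 to 0.25) in Fgf21KO, where it did not differ from sham beyond counting error. The difference for Mmp14 was 0.586, with 19.2 CPM in WS and 13.3 to 14.5 in the other libraries. Mmp9 stood at -0.83 (-1.87 to 0.04) in WT and 1.23 (0.16 to 2.94) in Fgf21KO, a difference of 2.062 that rests on 7 counts in KS.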

How the results depend on the processing

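No paired analysis was possible because only 1 pooled library stands for a group, beyond the genotype term of the additive model, which also stands for the pair of pools since the legs of a genotype come from the same mice. Without that term 11 members were called for denervation. Of the ratios of named members recomputed under the alternatives, 714 moved by less than their counting interval, 46 moved by more (39 of them with total-count scaling), and 0 changed sign among called values. Of the recomputed counts of members, 70 stayed within 1.5 times, pairs of 0 and 0 among them, and 22 did not. Members were 2-fold apart in 16 cases for WD vs WS, 13 for KD vs KS, 3 for the sham pair KS vs WS and 0 for the denervated pair. At a fold of 1.5 they became 34, 26, 10 and 4, with 9 higher and 14 lower in both genotypes. At a fold of 3 they became 5, 5 and 1 in the first 3 pairs, with 3 higher and 1 lower in both genotypes. A mean count of at least 50 left 10 in WD vs WS and 1 in KS vs WS. The deposited log2 values, whose added 1 shrinks low genes, gave 7, 8 and 0. Without the clusters of related copies, 2 members were higher in both genotypes. edgeR's exact test at an assumed coefficient of variation of 0.1 left 0 in KS vs WS, and at 0.4 it left 1, 1 and 0 in the first 3 pairs. The additive model called 12 members for denervation and 30 without the fold requirement. Fits with 1 library left out also dropped the genotype term, so they stand beside the 11 called by surgery alone. With 3 libraries left, the lone library of a surgery is assumed to vary like the others. Low counts limit Mmp3, Mmp9, Adam8, Adam11 and the sham values of Serpinb8 and Serpina3n.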

Other observations

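A pair of lists set the members beside related genes. Of 44 other extracellular proteases and inhibitors, 31 were in the table and 29 tested, and the additive model called 1 higher (3.45%, all genes 6.84%) and 2 lower (6.9%, all genes 6.24%) for denervation. Ctss, the lysosomal and secreted protease cathepsin S, had 41 counts in WS and 191 in WD, with 64 in KS and 213 in KD, and rose by 1.70 on the log2 scale (adjusted p = 2.16e-07). Wfdc1, a secreted protein with a WAP domain, had 1530, 490, 2001 and 361 counts, and fell by 2.33 (adjusted p = 7.04e-18). Htra4, a secreted serine protease, had 133, 75, 171 and 63 counts, and fell by 1.41 (adjusted p = 5.64e-06). Plaur, the urokinase receptor, had 11, 24, 13 and 35 counts and was not called (adjusted p = 0.0542).

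Of 40 matrix substrates of these proteases, 32 were in the table and tested, and edgeR's additive model called 6 lower (18.8%, all genes 6.24%) and 0 higher (all genes 6.84%), where 2 were above 0 at an unadjusted p-value below 0.05, short of 2-fold, and DESeq2 called 0 higher. Lum, Fmod and Vwf also stand among the cell markers. The median ratio of the 32 was -0.82 in WT and -0.56 in Fgf21KO, below the 0.01 of all genes in each. Vtn, or vitronectin, had 593 counts in WS and 237 in WD, with 767 in KS and 254 in KD, and fell by 1.73 (adjusted p = 6.96e-13). Col5a1, a fibrillar collagen chain, had 864, 400, 860 and 469 counts, and fell by 1.26 (adjusted p = 6.42e-10). Lrp4, the agrin receptor of the neuromuscular junction, had 455, 969, 589 and 1010 counts and stood at 0.66 (adjusted p = 2.16e-06), and Thbs1, or thrombospondin 1, had 142, 330, 122 and 248 and stood at 0.84 (adjusted p = 1.10e-04), both short of 2-fold. Higher levels of Lrp4 and Thbs1 thus stood beside lower levels of most of the list. The fibroblast and vascular marker sums given above were also lower in denervated muscle, and their part in these values was not tested.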
